A study of Mus musculus with 16 samples.

Results

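The genes described here are 34 known or proposed targets of the transcription factor p53 whose products act in cell cycle arrest, DNA repair, metabolism, membrane transport and survival signalling. They were listed by gene symbol with no threshold on their values, and all 34 symbols were found among the 46348 genes of the deposited table. Of the 34 members, 33 were among the 15494 genes with enough counts to be tested. The remaining member, Gdf15, which encodes a secreted stress factor, had 0 to 9 counts in a library and is not compared. The cells were MEC1, an established mouse line of the epicardium, the mesothelial sheet that covers the heart. The cells had received PRMT1 siRNA, p53 siRNA, both siRNAs or control siRNA, each with TGF-beta and without it, giving 8 groups of 2 poly(A)-enriched libraries. The study's title links PRMT1 to p53 by way of Mdm4, and the siRNA groups ask what loss of either RNA does to these cells with and without TGF-beta. The TGF-beta dose and time, the siRNA amounts and the way the line was made immortal are not given in the sources used here, and every group carries an siRNA. The 2 libraries of a group are described as biological replicates. Whether each had its own culture is not stated, so a p-value here reflects the spread between these libraries, which may be technical.

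p53 is held at low activity by the proteins Mdm2 and Mdm4, and when freed it binds DNA at sites built from a pair of short half-sites and switches on nearby genes. Its targets halt the cell cycle, repair DNA and supply nucleotides for repair, restrain growth signalling through TORC1, handle oxidants, vitamins and lipids, and feed back on p53 itself. PRMT1 places asymmetric dimethyl marks on arginines of histones and other proteins.

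Library totals were 19617874 to 30759317 counts. Levels are given as CPM, counts scaled to library size with TMM factors, and changes as log2 change ± SE from edgeR's quasi-likelihood test over all 16 libraries, where a positive value means higher in the group named first. A gene is said to rise or fall, or is called, where p stays under 0.05 after Benjamini-Hochberg adjustment across the 15494 genes. The label of the cells was checked with 12 epicardial markers, all of them tested, whose summed level was 403 to 564 CPM in libraries with TGF-beta and 2109 to 3085 CPM in libraries without it. The 12 differed widely in level. With control siRNA and no TGF-beta Upk3b had 586.1 and 561 CPM, and Aldh1a2 had 0.796 and 0.339 CPM. Endothelial markers summed to 9.37 to 12.9 CPM with TGF-beta and 9.67 to 15.9 CPM without. Of these 6 markers, 1 was at 0 in every library. Haematopoietic markers summed to 0.858 to 1.46 CPM with TGF-beta and 0.726 to 1.48 CPM without, with 2 of the 6 at 0 throughout. Cardiomyocyte markers summed to 0 to 0.355 CPM with TGF-beta and 0.0967 to 0.264 CPM without, and none of the 6 passed the filter.

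Both siRNA targets were reduced at the RNA level. Trp53, which encodes p53, had 55.4 and 54.2 CPM with p53 siRNA and 88.1 and 90.7 CPM with both siRNAs, against 144.5 and 128.3 CPM with control siRNA. In cells given TGF-beta it had 59.4 and 73.6 CPM with p53 siRNA and 90.3 and 89.7 CPM with both, against 148.3 and 148.1 CPM with control siRNA. Trp53 thus stood at 40.2% of control with p53 siRNA and at 65.5% with both siRNAs, a weaker reduction in the double treatment. Prmt1 had 74.5 and 77.1 CPM with PRMT1 siRNA, against 172.6 and 142.7 CPM with control siRNA, and stood at 48.1% of control with PRMT1 siRNA and 46.3% with both.

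Of the 16 libraries, the second of the group given p53 siRNA plus TGF-beta stood apart from the rest, and it bears on the members by their length. It is called the outlying library. Its members differed from those of its partner library by a median of 0.27 in log2 CPM, against 0.055 to 0.12 between the partners of the other 7 groups. Across the 33 members the difference, replicate 1 minus replicate 2, ran with log2 exon length at r = 0.782, against r between -0.571 and 0.252 in the other groups; genes are not independent replicates, and the same 2 libraries give every point. Rps27l, with a short transcript, had 164 CPM in replicate 2 and 89.3 CPM in replicate 1, while Trp53inp1, with a long one, had 11.2 and 20.4 CPM. Results are therefore given for all 16 libraries and, where they differ, for the 15 libraries left without the outlying one.

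**Figure D1:**
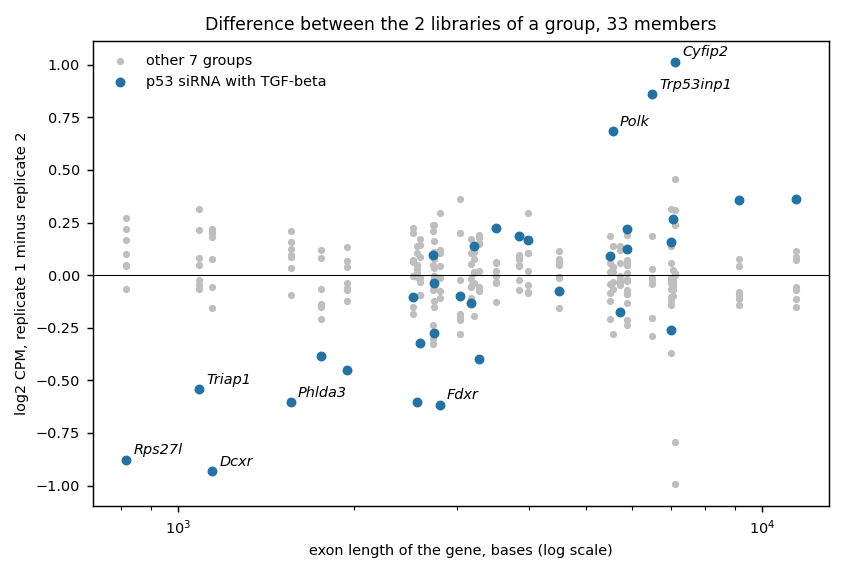
Difference in log2 CPM between the 2 libraries of a group (replicate 1 minus replicate 2, y axis) against exon length in bases (log x axis) for the 33 tested members, with the p53 siRNA plus TGF-beta group in blue and the other 7 groups in grey. The blue points climb with length, with Rps27l, Dcxr and Triap1 below 0 and Polk and Trp53inp1 above it, while the grey points show no such steep slope.

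More members rose than fell with PRMT1 siRNA, and more fell than rose with p53 siRNA. With PRMT1 siRNA and TGF-beta, against control siRNA and TGF-beta, 10 of the 33 tested members rose and 0 fell, where 9.13% of all tested genes rose and 6.53% fell. In that comparison 18 members were higher and 0 lower at an unadjusted p under 0.05. The share of all tested genes at an unadjusted p was not counted, here or below. DESeq2 called 10 members higher and 0 lower, among 2819 genes called in all. With PRMT1 siRNA, against control siRNA without TGF-beta, 13 rose and 2 fell, where 4.48% of all tested genes rose and 5.85% fell. With p53 siRNA and TGF-beta, against control siRNA and TGF-beta, 1 rose and 8 fell, where 2.82% rose and 2.39% fell. With p53 siRNA, against control siRNA without TGF-beta, 0 rose and 10 fell, where 1.17% of all tested genes rose and 1.29% fell. There 3 members were higher and 18 lower at an unadjusted p under 0.05. DESeq2 called 0 members higher and 10 lower, among 645 genes called in all. The median log2 change of the members was 0.29 for PRMT1 siRNA without TGF-beta and -0.28 for p53 siRNA without TGF-beta, while the medians over all tested genes were 0.0102 and 0.0061. In bulk RNA, a change in the share of cells that express a gene and a change in RNA per cell cannot be told apart.

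Both siRNAs were then set against PRMT1 siRNA alone, and how many members this lowered depended on the libraries fitted. Trp53 was reduced less in the double treatment than with p53 siRNA alone, and the part of this in the counts was not tested. Both siRNAs, against PRMT1 siRNA alone with TGF-beta, raised 0 and lowered 3 of the 33, where 0.219% of all tested genes rose and 0.232% fell. At an unadjusted p under 0.05 these were 3 higher and 15 lower. DESeq2 called 0 members higher and 7 lower, among 223 genes called in all. Without TGF-beta, both siRNAs raised 0 and lowered 5 members against PRMT1 siRNA, where 0.568% of all tested genes rose and 0.297% fell. At an unadjusted p under 0.05 these were 4 higher and 13 lower. DESeq2 called 2 members higher and 7 lower, among 537 genes called in all. In the fit of 15 libraries both siRNAs raised 2 and lowered 16 members with TGF-beta, where 5.74% of all genes rose and 6.45% fell, and raised 4 and lowered 14 without TGF-beta, where 11.8% rose and 9.83% fell. The same fit gave 17 members higher and 1 lower with PRMT1 siRNA and TGF-beta, where 21.2% of all genes rose and 20.1% fell, and 18 higher and 4 lower with PRMT1 siRNA alone, where 11% rose and 15.4% fell. It gave 1 higher and 8 lower with p53 siRNA and TGF-beta, where 1.86% rose and 2.25% fell, and 2 higher and 16 lower with p53 siRNA alone, where 5.09% rose and 6.56% fell. Of the 33 members, 10 were called in none of the 6 siRNA comparisons with 16 libraries (Dcxr, Ddb2, Ddit4, Fbxw7, Plk3, Ppm1d, Ptprv, Steap3, Triap1 and Xpc), where 75.8% of all tested genes were called in none. With 15 libraries 4 members (Plk3, Ppm1d, Triap1 and Xpc) were called in none, where 38% of all genes were.

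**Figure D2:**
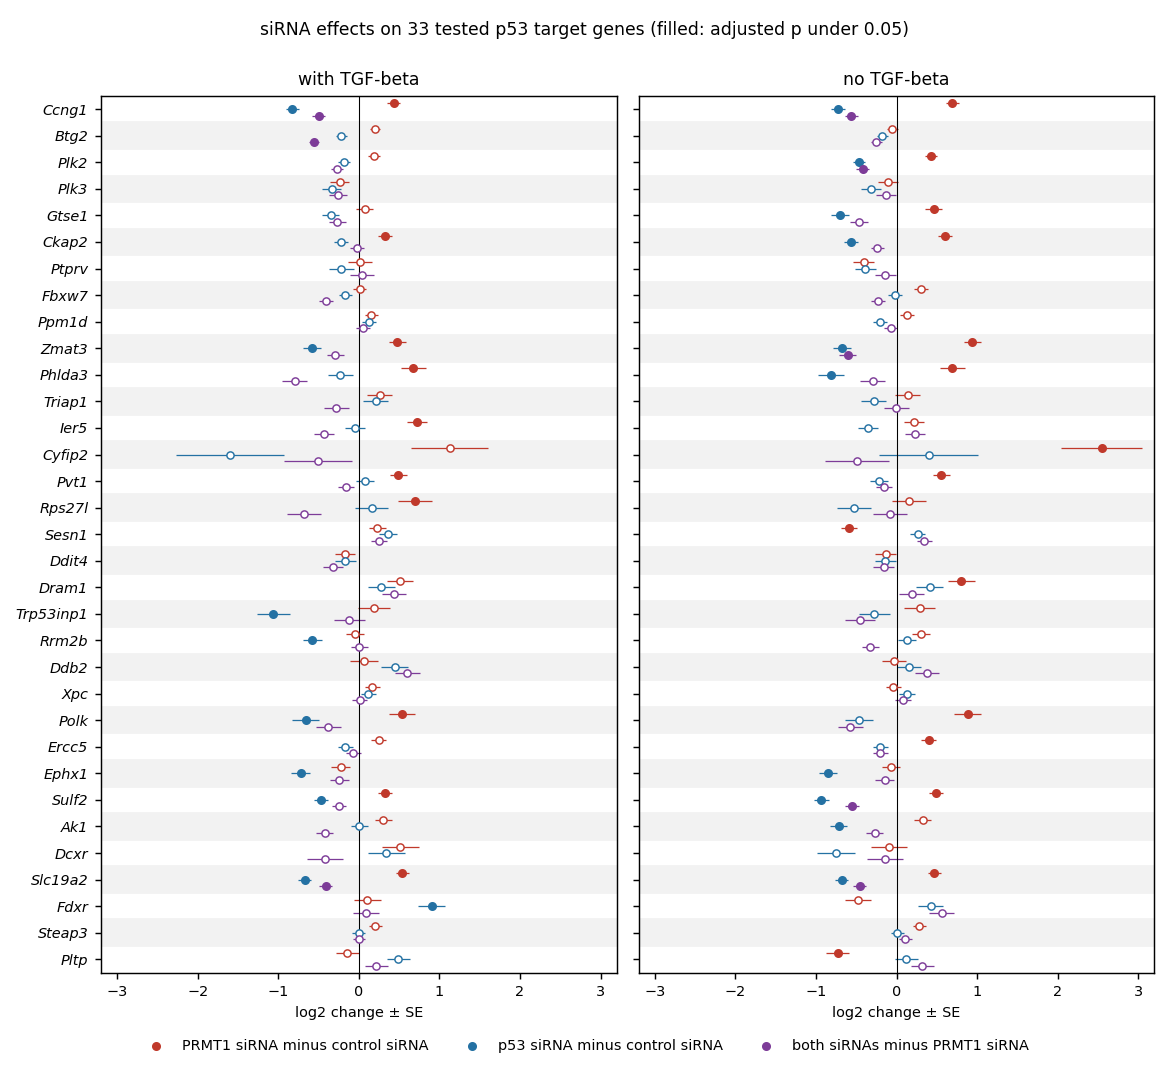
Log2 change ± SE (x axis) of the 33 tested members (rows, ordered by role) with TGF-beta on the left and without it on the right, for PRMT1 siRNA minus control siRNA (red), p53 siRNA minus control siRNA (blue) and both siRNAs minus PRMT1 siRNA (purple), with filled points at an adjusted p under 0.05. Without TGF-beta 13 filled red points lie above 0 and 2 below it, and 10 filled blue points lie below 0 and 0 above it. The red and blue changes share their control libraries.

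Some members could be set against DNA sequence near their start sites. RefSeq windows of 300 bases on GRCm38.p6, from 250 before to 50 after an annotated start, were available for 27 of the 34 members, as 41 windows. A full p53 site, a pair of half-sites at most 13 bases apart with at most 1 mismatch in all, stood in 4 of the 41 windows, each of another member, and in 1.09% of all 32851 windows of that length. A single half-site with no mismatch stood in 8 of the 41, again each of another member, and in 8.36% of all windows. Those members were Ccng1, Ckap2, Gtse1, Ier5, Polk, Ppm1d, Rps27l and Sesn1. The 4 windows with a full site are printed because they belong to members that moved with PRMT1 or p53 siRNA, with the bases of the full site in capitals. Each site carries 1 mismatch, and none overlaps a CCAAT box or a CHR element (TTTGAA). The Ccng1 window spans chr11:40755237-40755536 on the minus strand, and its site lies 195 to 176 bases before the start, with no spacer. The Gtse1 window spans chr15:85859696-85859995 on the plus strand, at a start inside the gene, and holds 2 overlapping matches from the base before that start to base 30 after it. The other windows of Gtse1, Polk and Rps27l, which lie nearer to the outer end of each gene, hold no full site. The Polk window spans chr13:96519138-96519437 on the minus strand, at a start inside the gene, with a site 231 to 211 bases before that start and a spacer of 1 base. The Rps27l window spans chr9:66946163-66946462 on the plus strand, also at a start inside the gene, with a site 117 to 98 bases before it and no spacer. A match describes the letters and is not evidence of binding, and a window without one says only that these letters are not in it.
Ccng1: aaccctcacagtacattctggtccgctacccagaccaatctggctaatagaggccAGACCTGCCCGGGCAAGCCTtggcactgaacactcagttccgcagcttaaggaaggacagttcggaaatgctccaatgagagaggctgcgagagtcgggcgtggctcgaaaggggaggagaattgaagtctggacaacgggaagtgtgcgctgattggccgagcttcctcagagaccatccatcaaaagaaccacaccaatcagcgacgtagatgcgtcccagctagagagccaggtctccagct
Gtse1: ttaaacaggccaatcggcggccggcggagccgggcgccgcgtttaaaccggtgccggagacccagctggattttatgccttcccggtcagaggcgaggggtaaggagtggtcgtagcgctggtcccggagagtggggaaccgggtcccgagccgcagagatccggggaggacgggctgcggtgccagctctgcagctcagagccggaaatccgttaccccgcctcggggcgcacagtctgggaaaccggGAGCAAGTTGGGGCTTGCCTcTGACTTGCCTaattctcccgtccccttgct
Polk: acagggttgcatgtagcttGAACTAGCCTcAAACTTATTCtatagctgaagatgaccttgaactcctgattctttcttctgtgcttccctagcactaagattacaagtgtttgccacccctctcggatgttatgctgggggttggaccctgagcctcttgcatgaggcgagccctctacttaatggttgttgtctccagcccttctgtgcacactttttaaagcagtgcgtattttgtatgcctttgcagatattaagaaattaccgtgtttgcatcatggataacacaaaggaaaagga
Rps27l: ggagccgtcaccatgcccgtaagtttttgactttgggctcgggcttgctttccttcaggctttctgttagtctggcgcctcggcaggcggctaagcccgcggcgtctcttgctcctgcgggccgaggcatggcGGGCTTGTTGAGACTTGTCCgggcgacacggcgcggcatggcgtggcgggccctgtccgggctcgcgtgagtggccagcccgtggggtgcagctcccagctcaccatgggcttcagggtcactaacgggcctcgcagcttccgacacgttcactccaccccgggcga

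Among the 9 arrest and cell cycle members, Ccng1 moved in all 6 siRNA comparisons. It encodes cyclin G1, which recruits a phosphatase to Mdm2, and spans chromosome 11, 40748552 to 40755311 (mm10). Ccng1 had 392.1 and 387.4 CPM with PRMT1 siRNA, 270 and 258 CPM with both siRNAs and 144 and 148 CPM with p53 siRNA, against 231 and 252 CPM with control siRNA. The 4 groups did not overlap, with both siRNAs just above control. In cells given TGF-beta Ccng1 had 328 and 336 CPM with PRMT1 siRNA, 235 and 236 CPM with both siRNAs and 150 and 128 CPM with p53 siRNA, against 251 and 241 CPM with control siRNA. Ccng1 rose with PRMT1 siRNA by 0.43 ± 0.081 with TGF-beta and by 0.69 ± 0.081 without it (edgeR, Benjamini-Hochberg adjusted p = 0.0056 and 0.000444). It fell with p53 siRNA by 0.82 ± 0.082 with TGF-beta and by 0.73 ± 0.081 without it (edgeR adjusted p = 0.000333 and 0.00124). Both siRNAs were 0.50 ± 0.081 lower than PRMT1 siRNA alone with TGF-beta and 0.56 ± 0.081 lower without it, on the log2 scale.

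Plk2, Ckap2 and Gtse1 shared the direction of Ccng1 without TGF-beta. Plk2, a stress-induced polo-like kinase (chromosome 13, 110395044 to 110400844), had 103 and 97.4 CPM with PRMT1 siRNA, 74.2 and 75.0 CPM with both siRNAs and 51.0 and 56.9 CPM with p53 siRNA, against 74.3 and 74.7 CPM with control siRNA. The double treatment thus lay at the control level, between the 2 single treatments. Plk2 rose with PRMT1 siRNA by 0.42 ± 0.076 (edgeR adjusted p = 0.00536), fell with p53 siRNA by 0.47 ± 0.076 (0.00999) and was 0.42 ± 0.075 lower with both siRNAs than with PRMT1 siRNA (0.0352). With TGF-beta none of these 3 comparisons was called for Plk2 with 16 libraries. Ckap2, which encodes a microtubule protein of the mitotic spindle (chromosome 8, 22168152 to 22185819), had 115 and 118 CPM with PRMT1 siRNA and 48.3 and 55.3 CPM with p53 siRNA, against 80.4 and 72.9 CPM with control siRNA. Its log2 change was 0.60 ± 0.085 with PRMT1 siRNA (edgeR adjusted p = 0.00133) and -0.56 ± 0.086 with p53 siRNA (0.00633), and with TGF-beta it rose with PRMT1 siRNA by 0.32 ± 0.085. Gtse1, which encodes a spindle protein that restrains p53, had 43.8 and 40.6 CPM with PRMT1 siRNA and 17.8 and 19.8 CPM with p53 siRNA, against 33.2 and 28.2 CPM with control siRNA. The groups did not overlap for either gene.

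Ckap2 and Gtse1 are also genes of dividing cells, and a list of 12 mitotic genes was read beside them. With PRMT1 siRNA and TGF-beta 0 of the 12 rose and 2 fell (9.13% and 6.53% of all tested genes), where Ckap2 rose. In that comparison 6 of the 12 were lower at an unadjusted p under 0.05. DESeq2 called 5 of them lower, among 2819 genes called in all. With p53 siRNA and TGF-beta edgeR called 0 of the 12 (2.82% of all tested genes rose and 2.39% fell). There 4 were lower at an unadjusted p under 0.05 and 1 was called lower by DESeq2, among 1465 genes called in all. Without TGF-beta 3 rose and 0 fell with PRMT1 siRNA (4.48% and 5.85%), and 0 rose and 6 fell with p53 siRNA (1.17% and 1.29%). The part of dividing cells in the values of Ckap2 and Gtse1 was not tested. Btg2, which encodes an antiproliferative regulator of mRNA decay, had 23.1 and 25.2 CPM with both siRNAs and TGF-beta, against 35.4 and 35.7 CPM with PRMT1 siRNA and TGF-beta. It was 0.56 ± 0.068 lower on the log2 scale (edgeR adjusted p = 0.00657), and this was its 1 call among the 6 siRNA comparisons. Plk3 and the phosphatase genes Ppm1d and Ptprv had no call in any of them, and neither had Fbxw7, which encodes a substrate receptor of a ubiquitin ligase. Ppm1d, whose product dephosphorylates p53, lay between 16.3 and 22.7 CPM in all 16 libraries.

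**Figure D3:**
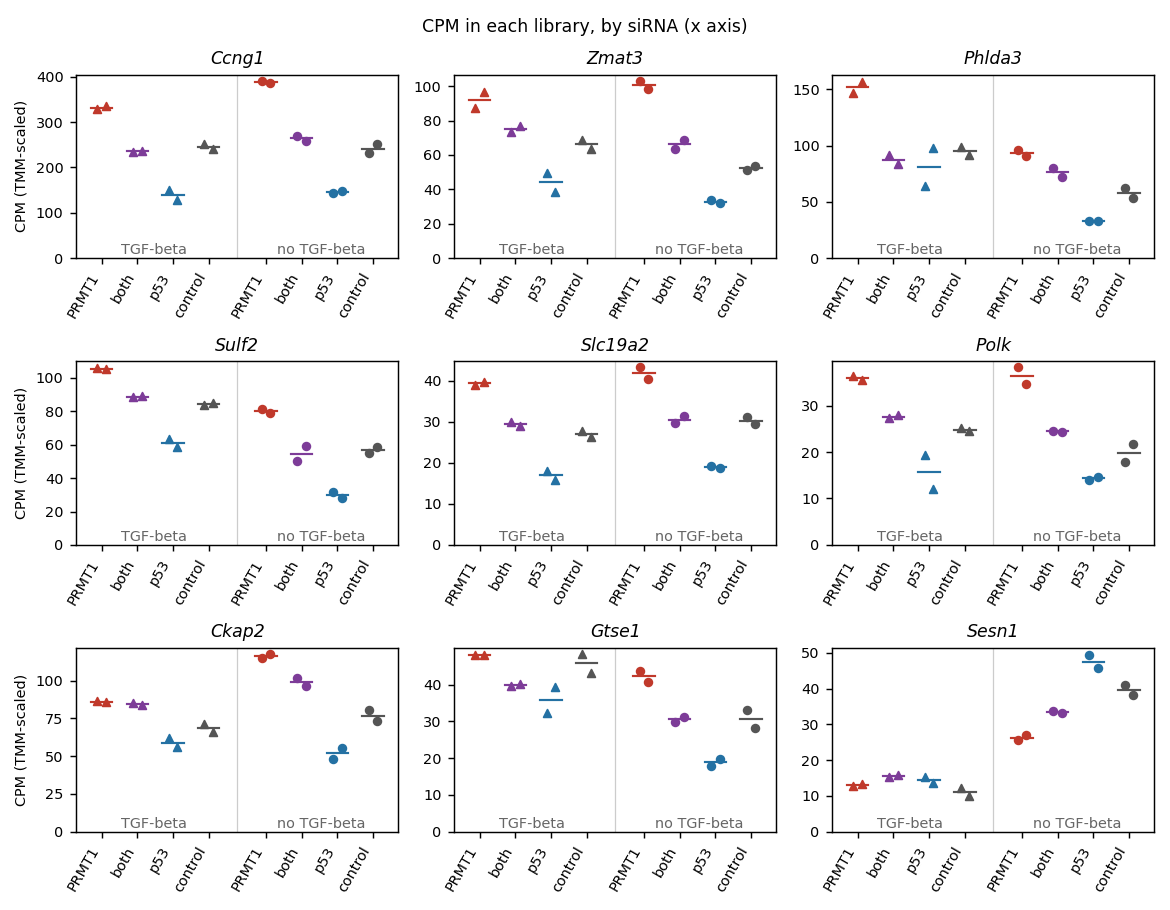
TMM-scaled CPM (y axis, from 0) of 9 members in each library, with TGF-beta as triangles on the left and without it as circles on the right of each panel, and the siRNA on the x axis; bars are means of 2 libraries. In 8 panels PRMT1 siRNA without TGF-beta lies above control and p53 siRNA below it, as for Ccng1 with 387.4 to 392.1 CPM and 144 to 148 CPM, whereas Sesn1 shows the reverse order.

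Of the RNA binding and survival signalling members, Zmat3 had the lowest adjusted p with PRMT1 siRNA without TGF-beta. Zmat3 encodes a zinc finger protein that binds RNA and regulates splicing, and spans chromosome 3, 32334792 to 32366014. It had 103 and 98.3 CPM with PRMT1 siRNA, 63.6 and 68.9 CPM with both siRNAs and 33.9 and 31.8 CPM with p53 siRNA, against 51.5 and 53.5 CPM with control siRNA. The 4 groups did not overlap, and the order was PRMT1 siRNA, both, control and p53 siRNA. With TGF-beta it had 87.3 and 96.9 CPM with PRMT1 siRNA, 73.5 and 77.1 CPM with both and 49.7 and 38.7 CPM with p53 siRNA, against 68.8 and 63.5 CPM with control siRNA. Zmat3 rose with PRMT1 siRNA by 0.48 ± 0.11 with TGF-beta and by 0.94 ± 0.11 without it (edgeR adjusted p = 0.0133 and 0.000397). It fell with p53 siRNA by 0.58 ± 0.11 with TGF-beta and by 0.68 ± 0.11 without it (edgeR adjusted p = 0.013 and 0.00986). Both siRNAs were 0.61 ± 0.11 lower than PRMT1 siRNA alone without TGF-beta (0.0328), and the difference with TGF-beta was -0.29 ± 0.11 and not called.

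Phlda3, which encodes an inhibitor of Akt at the membrane, had 96.2 and 90.7 CPM with PRMT1 siRNA and 33.3 and 32.5 CPM with p53 siRNA, against 62.1 and 53.7 CPM with control siRNA. It was called higher with PRMT1 siRNA (0.69 ± 0.16) and lower with p53 siRNA (-0.82 ± 0.16), again with no overlap between the groups. With TGF-beta it had 147 and 157 CPM with PRMT1 siRNA, 91.2 and 83.7 CPM with both and 64.4 and 98.01 CPM with p53 siRNA, against 98.5 and 92.1 CPM with control siRNA. The p53 siRNA group then overlapped control (-0.23 ± 0.15, edgeR adjusted p = 0.315), while without the outlying library the change was -0.57 ± 0.10 and called. Pvt1, a long noncoding RNA (chromosome 15, 62037986 to 62378096), had 18.2 and 16.5 CPM with PRMT1 siRNA, against 11.6 and 12.1 CPM with control siRNA. Pvt1 rose by 0.49 ± 0.11 with TGF-beta and 0.56 ± 0.10 without it (edgeR adjusted p = 0.0114 and 0.00668), and its change with p53 siRNA was 0.08 ± 0.11 with TGF-beta and -0.22 ± 0.11 without it, neither called.

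Rps27l and Ier5 were called with PRMT1 siRNA in the groups with TGF-beta and not in those without it. Rps27l, a p53-induced relative of a ribosomal protein gene, had 187 and 180 CPM with PRMT1 siRNA and TGF-beta, against 115 and 112 CPM with control siRNA and TGF-beta (0.69 ± 0.21, edgeR adjusted p = 0.0448). Without TGF-beta its change was 0.15 ± 0.21. The difference between these effects was 0.54 ± 0.29 and not called with 16 libraries (edgeR adjusted p = 0.299). With 15 libraries it was 0.55 and called (0.00715). Rps27l has 816 bases of exon, and the trend of level with length differed between these groups. In log2 CPM per doubling of length it was -0.0518 and -0.0293 with PRMT1 siRNA and TGF-beta, against 0.0553 and 0.0553 with control siRNA and TGF-beta. Under the other settings the change of Rps27l with TGF-beta ran from 0.40 to 0.72. The part of length in it was not tested. Ier5, an immediate early gene, had 137 and 142 CPM with PRMT1 siRNA and TGF-beta, against 89.1 and 80.4 CPM with control siRNA and TGF-beta (0.72 ± 0.12, edgeR adjusted p = 0.00346). Without TGF-beta the change of Ier5 was 0.22 ± 0.12, and the difference between the effects was 0.50 ± 0.17 and not called with 16 libraries (edgeR adjusted p = 0.149), but 0.51 and called with 15 (0.00498). In a list of 10 immediate early genes, 1 rose and 0 fell with PRMT1 siRNA and TGF-beta (9.13% and 6.53% of all tested genes). Without TGF-beta 3 rose and 0 fell with PRMT1 siRNA (4.48% and 5.85%). Cyfip2, which encodes a subunit of the WAVE actin regulatory complex, was scarce, with 32 and 30 counts with PRMT1 siRNA, against 3 and 6 counts with control siRNA. Its fitted change of 2.54 ± 0.51 (edgeR adjusted p = 0.00914) rests on those few counts. Triap1, a small mitochondrial survival factor, had no call in any siRNA comparison.

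The members that restrain TORC1 or act in autophagy did not move as one. Sesn1, whose product inhibits TORC1 when leucine is short (chromosome 10, 41810574 to 41908424), had 25.6 and 27.0 CPM with PRMT1 siRNA, 33.6 and 33.2 CPM with both siRNAs and 49.3 and 45.8 CPM with p53 siRNA, against 41.1 and 38.2 CPM with control siRNA. This is the reverse of the order seen for Ccng1 and Zmat3, with PRMT1 siRNA lowest and p53 siRNA highest. Sesn1 fell with PRMT1 siRNA by 0.59 ± 0.096 (edgeR adjusted p = 0.00334), and its change with p53 siRNA was 0.26 ± 0.095 and not called with 16 libraries (0.216), but called with 15 at 0.25 ± 0.075. In cells given TGF-beta the 2 groups came together, at 12.7 and 13.5 CPM with PRMT1 siRNA, against 12.4 and 10.1 CPM with control siRNA. Dram1, which encodes a lysosomal membrane protein of autophagy, had 8.38 and 6.51 CPM with PRMT1 siRNA, against 3.85 and 4.69 CPM with control siRNA, and rose by 0.81 ± 0.16. Trp53inp1, which encodes a protein of stress response and autophagy, had 20.4 and 11.2 CPM with p53 siRNA and TGF-beta, against 33.5 and 32.8 CPM with control siRNA and TGF-beta. The 2 libraries of p53 siRNA lay below both controls, and the change was -1.06 ± 0.20 with 16 libraries and -0.71 ± 0.13 with 15, called in both. Ddit4, an inhibitor of TORC1 induced by stress, had no call with either siRNA in 16 libraries. Without TGF-beta 0 of 10 amino acid stress genes rose and 2 fell with PRMT1 siRNA (4.48% and 5.85% of all tested genes). With p53 siRNA 0 rose and 3 fell (1.17% and 1.29%).

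Among the 5 DNA repair and nucleotide supply members, Polk responded most to PRMT1 siRNA. Polk encodes DNA polymerase kappa, which copies past damaged bases (chromosome 13, 96480689 to 96542485), and had 38.2 and 34.7 CPM with PRMT1 siRNA, against 17.9 and 21.7 CPM with control siRNA. With TGF-beta it had 36.4 and 35.4 CPM with PRMT1 siRNA, against 25.1 and 24.5 CPM with control siRNA. It rose by 0.53 ± 0.16 with TGF-beta and 0.88 ± 0.16 without it (edgeR adjusted p = 0.045 and 0.00644). Its fall with p53 siRNA and TGF-beta, 0.66 ± 0.17 (0.0453), was lost without the outlying library, at -0.37 ± 0.11. Rrm2b, which encodes the p53-inducible subunit of ribonucleotide reductase, had 10.5 and 8.15 CPM with p53 siRNA and TGF-beta, against 14.3 and 13.6 CPM with control siRNA and TGF-beta. Its fall of 0.58 ± 0.12 was also lost without it, at -0.41 ± 0.11. Ercc5, the nuclease XPG of nucleotide excision repair, rose with PRMT1 siRNA by 0.40 ± 0.096 without TGF-beta. Ddb2 and Xpc, which encode proteins that recognise damage in the same repair pathway, had no call in any siRNA comparison with 16 libraries, Xpc lying at 18.2 to 23.96 CPM across libraries.

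Of the metabolism and membrane members, Slc19a2 and Sulf2 followed Ccng1. Slc19a2 encodes a thiamine transporter (chromosome 1, 164249046 to 164265385) and had 43.3 and 40.5 CPM with PRMT1 siRNA, 29.8 and 31.3 CPM with both siRNAs and 19.2 and 18.6 CPM with p53 siRNA, against 31.1 and 29.5 CPM with control siRNA. With TGF-beta it had 39.0 and 39.6 CPM with PRMT1 siRNA, 30.1 and 29.1 CPM with both and 18.1 and 15.8 CPM with p53 siRNA, against 27.8 and 26.4 CPM with control siRNA. Slc19a2 was called in all 6 siRNA comparisons, as Ccng1 was. It rose with PRMT1 siRNA by 0.54 ± 0.078 with TGF-beta and 0.47 ± 0.078 without it (edgeR adjusted p = 0.00129 and 0.00352), and fell with p53 siRNA by 0.67 ± 0.081 and 0.68 ± 0.08 (0.000995 and 0.00133). Sulf2 encodes an extracellular sulfatase that trims heparan sulfate (chromosome 2, 166073089 to 166155663). It had 81.4 and 78.8 CPM with PRMT1 siRNA, 50.1 and 59.2 CPM with both siRNAs and 31.8 and 27.9 CPM with p53 siRNA, against 55.2 and 58.8 CPM with control siRNA. The libraries of both siRNAs spanned those of control. Sulf2 rose with PRMT1 siRNA by 0.32 ± 0.09 with TGF-beta and 0.49 ± 0.091 without it, and fell with p53 siRNA by 0.47 ± 0.091 with TGF-beta and 0.93 ± 0.093 without it. The last of these had the lowest adjusted p of any member with p53 siRNA without TGF-beta (edgeR, 0.000723).

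Without TGF-beta, Ephx1 and Ak1 fell with p53 siRNA and had no called rise under PRMT1 siRNA with 16 libraries. Ephx1, the microsomal epoxide hydrolase of detoxification (chromosome 1, 180976210 to 181020904), had 64.6 and 61.6 CPM with p53 siRNA and 104 and 114 CPM with PRMT1 siRNA, against 119 and 109 CPM with control siRNA. PRMT1 siRNA overlapped control (-0.06 ± 0.11, edgeR adjusted p = 0.797), while p53 siRNA lay below both (-0.85 ± 0.11, 0.00298). With TGF-beta Ephx1 had 19.0 and 26.0 CPM with p53 siRNA, against 36.2 and 38.0 CPM with control siRNA, and fell by 0.72 ± 0.12. Ak1, an adenylate kinase (chromosome 2, 32621758 to 32635058), had 42.9 and 45.9 CPM with p53 siRNA and 90.6 and 92.6 CPM with PRMT1 siRNA, against 77.4 and 68.7 CPM with control siRNA. It fell with p53 siRNA by 0.72 ± 0.11 (edgeR adjusted p = 0.00579), and its change with PRMT1 siRNA was 0.33 ± 0.11, not called with 16 libraries and called with 15. Pltp, which encodes a phospholipid transfer protein (chromosome 2, 164839518 to 164857711), had 31.6 and 30.6 CPM with PRMT1 siRNA, against 54.0 and 49.1 CPM with control siRNA, and fell by 0.73 ± 0.14 (edgeR adjusted p = 0.00837). Fdxr, the mitochondrial ferredoxin reductase, was the 1 member called higher with p53 siRNA in 16 libraries, with 23.3 and 35.8 CPM with p53 siRNA and TGF-beta, against 15.4 and 16.2 CPM with control siRNA and TGF-beta. Its change was 0.90 ± 0.17, and 0.56 ± 0.12 without the outlying library, called in both. Without TGF-beta Fdxr had 27.9 and 27.0 CPM with PRMT1 siRNA and 53.6 and 49.2 CPM with p53 siRNA, against 39.6 and 36.9 CPM with control siRNA. The order was that of Sesn1, and these changes were called with 15 libraries and not with 16. Dcxr, a carbonyl and xylulose reductase, and Steap3, a ferrireductase, had no call with either siRNA in 16 libraries.

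Most of these calls were lost in at least 1 fit that left out 1 library of the comparison. Such a fit leaves 1 library in a group and can have less power. A lost call therefore does not by itself show dependence on that library. For PRMT1 siRNA with TGF-beta, 2 of the 10 calls remained whichever library of the comparison was left out (Ier5 and Slc19a2), and without TGF-beta 4 of the 15 did (Ccng1, Ckap2, Sesn1 and Zmat3). For p53 siRNA with TGF-beta, 2 of the 9 calls remained (Ccng1 and Slc19a2), and without TGF-beta 3 of the 10 (Ccng1, Slc19a2 and Sulf2). None of the 3 and 5 calls of both siRNAs against PRMT1 siRNA remained, with 0 members called in each case. No called member changed direction in any of these fits. For Zmat3 with p53 siRNA and no TGF-beta, the adjusted p ran from 0.06 to 0.0945 without each of the 4 libraries in turn, and the log2 change from -0.72 to -0.63. For Plk2 with PRMT1 siRNA the call remained without 1 of the 4 libraries (PRMT1 siRNA replicate 2) and was lost without each of the others. Ephx1 with p53 siRNA lost its call without control replicate 1 (0.0539), and Slc19a2 with PRMT1 siRNA without PRMT1 siRNA replicate 1 (0.0537).

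Comparisons that share no library can be set against each other member by member. The p53 siRNA effect and the effect of adding p53 siRNA to PRMT1 siRNA, both without TGF-beta, had the same sign in 30 of 33 members (90.9%), where 52.7% of all tested genes had the same sign. Of the 10 members called with p53 siRNA, 5 were also called when it was added to PRMT1 siRNA, which is 5 of 5 calls there (Ccng1, Plk2, Slc19a2, Sulf2 and Zmat3). The PRMT1 siRNA effects with and without TGF-beta had the same sign in 25 members (75.8%, against 54.1% of all tested genes), and 8 were called in both. The p53 siRNA effects with and without TGF-beta had the same sign in 24 members (72.7%, against 47.0%). PRMT1 siRNA with TGF-beta and p53 siRNA without TGF-beta had opposite signs in 23 of 33 members, where 52.4% of all tested genes did so. For PRMT1 siRNA without TGF-beta and p53 siRNA with TGF-beta this was 22 of 33 members, or 66.7%, nearer to the 59.1% of all tested genes. Pearson r of the members' log2 changes was -0.103 for the former pair and -0.687 for the latter. Over all tested genes it was 0.069 and -0.119. The first pair shared 6 oppositely called members, 6 of the 10 calls of each (Ccng1, Ckap2, Phlda3, Slc19a2, Sulf2 and Zmat3). For none of these pairs was the share of all tested genes called in both counted. The shared calls of members therefore have no background beside them. PRMT1 siRNA and p53 siRNA without TGF-beta share their control libraries, so their values are given side by side only.

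TGF-beta by itself moved the members in both directions. With control siRNA, TGF-beta raised 11 and lowered 8 of the 33, where 17.8% of all tested genes rose and 20.6% fell. The members' shares were 33.3% and 24.2%. With 15 libraries TGF-beta raised 12 and lowered 11 members, where 24.8% of all genes rose and 27.5% fell. Plk2 had 321 and 310 CPM with TGF-beta, against 74.3 and 74.7 CPM without it, and rose by 2.08 ± 0.076 (edgeR adjusted p = 2.75e-09). Fbxw7 (chromosome 3, 84815268 to 84979198) had 48.7 and 49.9 CPM with TGF-beta, against 17.2 and 17.7 CPM without it, and rose by 1.5004 ± 0.089. Neither gene's groups overlapped, and the rise of Plk2 was the largest among members with control siRNA. Ak1 rose by 1.31, Steap3 by 1.15, Plk3 by 0.76, Phlda3 by 0.72, Gtse1 by 0.57, Sulf2 by 0.57, Ier5 by 0.55, Ddit4 by 0.48 and Zmat3 by 0.33 on the log2 scale.

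The members that TGF-beta lowered were led by Ptprv and Sesn1. Ptprv, a receptor-like phosphatase gene (chromosome 1, 135108497 to 135132594), had 6.87 and 7.58 CPM with TGF-beta, against 35.5 and 36.0 CPM without it, and fell by 2.30 ± 0.15 (edgeR adjusted p = 1.97e-07). Sesn1 had 12.4 and 10.1 CPM with TGF-beta, against 41.1 and 38.2 CPM without it, and fell by 1.82 ± 0.10 (6.84e-08). The log2 changes of the other 6 that fell were -1.62 for Ephx1, -1.28 for Fdxr, -1.26 for Trp53inp1, -1.204 for Pltp, -1.05 for Ddb2 and -0.36 for Rrm2b. Beside these, 8 of 10 amino acid stress genes rose and 0 fell with TGF-beta and control siRNA. There 7 of 12 mitotic genes rose and 0 fell, and 4 of 10 immediate early genes rose and 1 fell. Of all tested genes 17.8% rose and 20.6% fell in that comparison.

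A TGF-beta response in the same direction was called under each of the 4 siRNA conditions for 15 members. With PRMT1 siRNA, TGF-beta raised 9 and lowered 11 members (16.3% and 16.2% of all tested genes), and with 15 libraries 12 and 13 (25.7% and 25%). With both siRNAs it raised 8 and lowered 9 (15% and 16.3%), and with 15 libraries 10 and 12 (23.5% and 23.9%). With p53 siRNA it raised 14 and lowered 9 (23.3% and 22%), and with 15 libraries 13 and 9 (22.7% and 23.5%). The 4 responses share no library. Of the members, 7 rose in all 4 (Ak1, Fbxw7, Ier5, Plk2, Plk3, Steap3 and Sulf2), where 9% of all tested genes did, and 8 fell in all 4 (Ddb2, Ephx1, Fdxr, Pltp, Ptprv, Rrm2b, Sesn1 and Trp53inp1), where 9.93% did. These 15 were called in all 4 with 15 libraries too, where 12.1% of all genes rose and 12.7% fell in all 4. Ak1 had 162 and 202 CPM with p53 siRNA and TGF-beta, against 42.9 and 45.9 CPM with p53 siRNA alone, a rise of 2.03 ± 0.11. Ak1 with control siRNA had 181 and 182 CPM with TGF-beta, against 77.4 and 68.7 CPM without it. The p53 siRNA and control groups of Ak1 did not overlap without TGF-beta, and with it they overlapped through the outlying library, at 202 CPM, while its partner at 162 CPM lay below both controls.

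**Figure D4:**
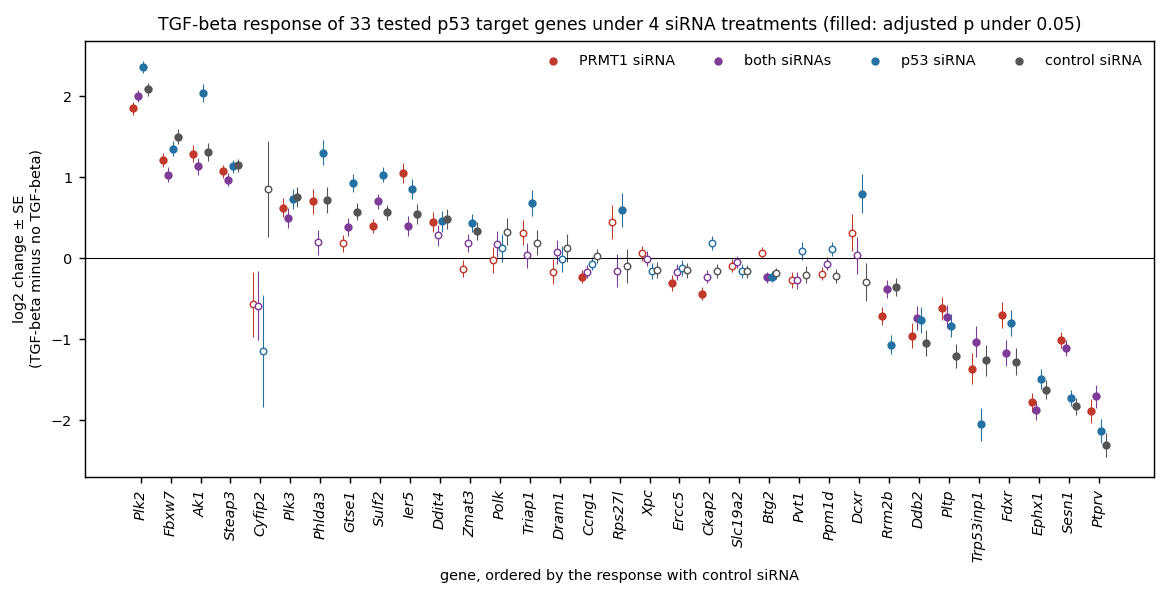
Log2 change ± SE of TGF-beta minus no TGF-beta (y axis) for the 33 tested members, ordered by the response with control siRNA, under PRMT1 siRNA (red), both siRNAs (purple), p53 siRNA (blue) and control siRNA (grey), with filled points at an adjusted p under 0.05. Plk2, Fbxw7, Ak1 and Steap3 stand above 0 and Ephx1, Sesn1 and Ptprv below it under every siRNA, and Sesn1 lies closer to 0 with PRMT1 siRNA (-1.01) than with control siRNA (-1.82).

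The effects of the siRNAs on each other and on the TGF-beta response were tested as interactions. The PRMT1 by p53 interaction with TGF-beta was called for 0 of the 33 members and 0.762% of all tested genes by edgeR's quasi-likelihood test. There 12 members had an unadjusted p under 0.05, and DESeq2 called 4 members among 958 genes in all. Without TGF-beta this interaction was called for 0 members and 0% of all tested genes. Of the members, 7 had an unadjusted p under 0.05, and DESeq2 called 1 among 49 genes in all. With 15 libraries the counts were 2 with TGF-beta and 9 without it, where 2.31% and 9.23% of all genes were called. For Ephx1 without TGF-beta the interaction was 0.70 ± 0.16 (edgeR adjusted p = 0.314 with 16 libraries and 0.00262 with 15). That value reflects a change of -0.15 when p53 siRNA was added to PRMT1 siRNA, against -0.85 when it was given alone. Trp53 stood at 65.5% of control with both siRNAs and at 40.2% with p53 siRNA, and with TGF-beta at 60.8% and 44.9%. A smaller effect of p53 siRNA in the double treatment cannot be told apart from this weaker reduction of Trp53. PRMT1 siRNA by TGF-beta was called for 1 member, Sesn1, and for 2.08% of all tested genes, and p53 siRNA by TGF-beta for 1 member, Ak1, and for 1.02%. With 15 libraries these were 13 and 2 members, where 30.7% and 2.24% of all genes were called.

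Levels between members were compared per kilobase of exon. In control cells without TGF-beta Rps27l was highest at 148 RPKM, followed by Ccng1 at 68.8, Ephx1 at 58.4, Phlda3 at 37.1 and Ak1 at 28.2 RPKM. The lowest tested members were Dram1 at 1.40 RPKM and Cyfip2 at 0.0298 RPKM, with Gdf15 at 0.0239 RPKM. By mean CPM, 11 of the 33 tested members were highest in PRMT1 siRNA with TGF-beta and 11 in PRMT1 siRNA without it, where 12.8% and 10% of all tested genes were. In p53 siRNA 8 members were lowest with TGF-beta and 15 without it, where 14.2% and 18.8% of all tested genes were. The values of 6 members (Ddb2, Pltp, Pvt1, Rrm2b, Sulf2 and Zmat3) were off whole counts by over 0.05 in at least 12 libraries. Exons of 7 members (Ddb2, Plk3, Pltp, Ptprv, Pvt1, Rrm2b and Sulf2) are overlapped on the other strand by another gene, those of 2 (Ephx1 and Pvt1) on the same strand, and Rps27l has a near copy in Rps27. The counts of these genes are uncertain to that extent.

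The rest of the p53 pathway was represented by 20 other genes, 19 of them tested, and Trp53, the target of the p53 siRNA, is one of these. With PRMT1 siRNA and TGF-beta 10 of the 19 rose and 1 fell (9.13% and 6.53% of all tested genes). Without TGF-beta 10 rose and 0 fell (4.48% and 5.85%). With p53 siRNA 0 rose and 6 fell with TGF-beta (2.82% and 2.39%), and 0 rose and 5 fell without it (1.17% and 1.29%). Both siRNAs against PRMT1 siRNA raised 0 and lowered 5 with TGF-beta (0.219% and 0.232%). Without it they raised 0 and lowered 6 (0.568% and 0.297%). Cdkn1a, which encodes the cell cycle inhibitor p21, had 86.1 and 79.5 CPM with PRMT1 siRNA, 37.6 and 36.6 CPM with both siRNAs and 9.03 and 9.20 CPM with p53 siRNA, against 29.0 and 27.1 CPM with control siRNA. Its log2 changes of 1.56 with PRMT1 siRNA and -1.62 with p53 siRNA, both without TGF-beta, were larger in size than those of any tested member in the same comparisons except Cyfip2 with PRMT1 siRNA. Of the 12 epicardial markers, 0 rose and 11 fell with TGF-beta and control siRNA (17.8% and 20.6% of all tested genes). With PRMT1 siRNA 2 rose and 2 fell with TGF-beta, and 1 rose and 3 fell without it. With p53 siRNA 2 rose and 5 fell with TGF-beta, and 0 rose and 1 fell without it. The siRNA shares of all tested genes given above for the p53 pathway apply to the markers too. Of the 4 endothelial markers tested, 1 rose and 0 fell with PRMT1 siRNA without TGF-beta, and the 1 haematopoietic marker tested changed by 0.50 on the log2 scale in that comparison, not called.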

How the data were processed

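Poly(A)-enriched RNA from MEC1 cells was sequenced in 16 libraries, and groups were taken from the sample titles. The values are expected counts per gene, deposited without scaling for depth or length; the submitters' processing notes name TopHat2, Partek and mm10 and give no versions. The strand setting, annotation and counting rules are not given in the sources used here. Values were made whole by rounding; 60% of those above 0 were already whole to within 0.01. In R 4.3.3, edgeR 4.0.16 fitted 1 mean per group to the 16 libraries by quasi-likelihood, with TMM factors, filterByExpr and Benjamini-Hochberg adjustment over 15494 genes. The common coefficient of biological variation came to 0.114, and to 0.0604 for 15 libraries and 16103 genes without the outlying library. SE is the size of the log2 change divided by the square root of F. RPKM used exon lengths of GENCODE vM21, not known to be the authors' own annotation. The alternatives were DESeq2 1.42.0, RLE factors in edgeR, no filter on low counts, fits of just the groups compared, a replicate block, offsets for transcript length, and leaving out each library. The procedure was tested on simulated counts with a smaller spread than the 16 libraries showed, no outlying library and no length trend. That test does not cover those features of these data.

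The members, the other gene lists and the tests were chosen with earlier results of these data known. The lists are other p53 pathway genes, mitotic genes, immediate early genes, amino acid stress genes, and epicardial, endothelial, cardiomyocyte and haematopoietic markers. Members described in full are the 12 with the lowest adjusted p in any of the 3 siRNA comparisons without TGF-beta and the 4 with the lowest in the TGF-beta response with control siRNA. Other members named with values were chosen after their values were seen. Promoter windows are RefSeq's on GRCm38.p6, searched on both strands for p53 sites, CCAAT boxes (CCAAT, in 37.4% of all windows and 20 of the 41 member windows) and CHR elements (TTTGAA, in 17.9% and in 5 of the 41). Bases 11 to 30 after the start lay in a GENCODE transcript of the gene for 35 of the 41 member windows.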

Additional observations from a re-analysis of the deposited data

Results flagged for a closer look

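For Sesn1 the effect of PRMT1 siRNA differed between cells with and without TGF-beta. With TGF-beta the log2 change was 0.23 ± 0.10 (12.7 and 13.5 CPM with PRMT1 siRNA, against 12.4 and 10.1 CPM with control siRNA), and without TGF-beta it was -0.59 ± 0.096 (25.6 and 27.0 CPM, against 41.1 and 38.2 CPM). The interaction was 0.82 ± 0.14 (edgeR, Benjamini-Hochberg adjusted p = 0.0155) and 0.84 with 15 libraries. Without each of the 8 libraries in turn it was 0.68 to 0.97 with adjusted p from 0.0147 to 0.0994, and the call was kept without 3 of the 8.

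For Ak1 the effect of p53 siRNA differed between cells with and without TGF-beta. With TGF-beta the log2 change was 0.0037 ± 0.10 (162 and 202 CPM with p53 siRNA, against 181 and 182 CPM with control siRNA), and without TGF-beta it was -0.72 ± 0.11 (42.9 and 45.9 CPM, against 77.4 and 68.7 CPM). The interaction was 0.72 ± 0.15 (edgeR, Benjamini-Hochberg adjusted p = 0.0484). It was 0.56 with adjusted p = 0.0206 without the outlying library of the p53 siRNA plus TGF-beta group, and the call was lost without each of 6 of the 8 libraries.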

How the results depend on the processing

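Values here are numbers of called members by edgeR unless DESeq2 is named, out of 33 in the reported fit. A number in brackets after a count is the number of all genes called in the same fit. For the fit of 15 libraries without length offsets, shares of all genes are given with the results above. The cause of the shifts was not tested. RLE factors kept every comparison's count within 1.5 times of the reported one. Under DESeq2, both siRNAs against PRMT1 siRNA gave 7 (223) with TGF-beta and 9 (537) without it, where 3 and 5 were reported. The PRMT1 by p53 interactions gave 4 (958) with TGF-beta and 1 (49) without it, where 0 and 0 were reported. For p53 siRNA by TGF-beta the count was 3 (478), where 1 was reported. With no low-count filter the same 5 comparisons gave 7 (586), 9 (1156), 5 (3175), 1 (461) and 6 (1952). PRMT1 siRNA by TGF-beta gave 5 (2128) there. Without the outlying library, counts moved to 18 for PRMT1 siRNA with TGF-beta, 18 for p53 siRNA without TGF-beta, 18 and 18 for both siRNAs against PRMT1 siRNA, 2 and 9 for the PRMT1 by p53 interactions, 13 for PRMT1 siRNA by TGF-beta and 2 for p53 siRNA by TGF-beta. With length offsets p53 siRNA with TGF-beta gave 14 (1335). Both siRNAs against PRMT1 siRNA then gave 7 (191) with TGF-beta and 11 (486) without it. The PRMT1 by p53 interactions gave 2 (296) with TGF-beta and 1 (16) without it. The interactions with TGF-beta gave 3 (790) for PRMT1 siRNA and 3 (393) for p53 siRNA. With length offsets and 15 libraries, PRMT1 siRNA gave 20 (6213) with TGF-beta and 24 (4822) without it. In that fit p53 siRNA without TGF-beta gave 19 (2409). Both siRNAs against PRMT1 siRNA gave 15 (1873) with TGF-beta and 18 (3128) without it. The PRMT1 by p53 interaction without TGF-beta gave 6 (1164), and PRMT1 siRNA by TGF-beta 10 (4093). Fitting only the groups compared gave 21 (7650) for PRMT1 siRNA with TGF-beta and 0 (0) for p53 siRNA with TGF-beta. Both siRNAs against PRMT1 siRNA gave 20 (3020) with TGF-beta and 16 (2435) without it. TGF-beta under p53 siRNA gave 12 (2207), and PRMT1 by p53 without TGF-beta 1 (108). The interactions of PRMT1 and p53 siRNA with TGF-beta gave 14 (4856) and 0 (0).

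The labels state no pairing of replicate numbers across groups. Differences between replicates correlated at -0.401 to 0.246 over 28 pairs of groups, with 6 pairs over 0.1. These values show no clear pairing and cannot exclude a shared culture or batch. The replicate block gave 1 (36) and 3 (60) for both siRNAs against PRMT1 siRNA, with and then without TGF-beta. For p53 siRNA by TGF-beta it gave 0 (104). PRMT1 siRNA gave 7 (1976) and 15 (1266), and p53 siRNA 8 (592) and 10 (276), in the same order.

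With each library left out in turn, the group left with 1 library is assumed to vary like the others. The median log2 change of the members then ran from 0.20 to 0.29 for PRMT1 siRNA with TGF-beta and from 0.28 to 0.29 without it. For p53 siRNA it ran from -0.23 to -0.15 with TGF-beta and from -0.32 to -0.24 without it. For both siRNAs against PRMT1 siRNA it ran from -0.25 to -0.22 with TGF-beta and from -0.23 to -0.19 without it. The median PRMT1 by p53 interaction ran from -0.056 to 0.060 with TGF-beta and from 0.096 to 0.17 without it. The median interaction with TGF-beta ran from -0.11 to 0.0009 for PRMT1 siRNA and from 0.057 to 0.19 for p53 siRNA. Median TGF-beta responses ran from -0.13 to -0.036 with control siRNA and from -0.15 to 0.032 with PRMT1 siRNA. They ran from 0.043 to 0.12 with p53 siRNA and from -0.059 to -0.031 with both. Over 133 called pairs of a member and a comparison, 1368 of 1604 values under other settings kept the call, 236 lost it and 0 changed direction. At 2 libraries a group, changes in members of few counts such as Cyfip2 and Gdf15 were not detectable or rest on few reads.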
